A study of Mus musculus with 2 samples.

Results

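The genes described here form germ cells and protect their genome. The list holds 46 mouse genes, of which 15 belong to the piRNA pathway, 17 to meiosis and 14 to other steps of germ cell development. Every listed Dnmt1-Dam peak was taken whose assigned gene carries one of these 46 names, which gave 18 of 8226 peaks at 11 of the 46 genes. The deposited table names some genes by an older symbol or by a transcript accession alone, and matching by accession added 3 peaks at Mei4 and Syce1. The total was then 21 peaks at 13 genes, and 33 members had no listed peak.

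DamID records where a protein has been by fusing it to Dam, a bacterial enzyme that methylates adenine in the sequence GATC. One library came from embryos injected with a Dnmt1-V5-Dam construct, in which Dnmt1 is joined to the V5 epitope tag and to Dam, and the other from embryos injected with Dam alone, the background control. In both, zygotes came from BCF1 (C57BL/6 x CBA/CA) females of 5 weeks, mated with males whose strain is not given in the sources used here, and 50 embryos per construct were collected between the 4-cell and the 8-cell stage. Each group is 1 library of pooled embryos, so there is no replicate spread and no test between the libraries, and the fusion was expressed from an injected construct beside the embryo's own Dnmt1. The heights of the 2 libraries summed to 81171 (Dnmt1-Dam) and 12018 (Dam-only) over all listed peaks. No read total is given in the sources used here, which leaves the depth unknown.

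Dnmt1 copies cytosine methylation at CG dinucleotides onto the new strand after replication. In germ cells, PIWI proteins carry piRNAs to the transcripts of retroelements, and in the male germline they direct DNA methylation to the elements themselves. Many genes of this pathway and of meiosis have CG-rich promoters that are methylated and silent in somatic tissues, and they are a textbook case of genes held off by DNA methylation and by a Polycomb complex that contains E2F6 and MGA. Embryos of the cleavage stages hold no germ cells yet.

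Promoter sequences were examined first, because Dam can leave its mark only at GATC and Dnmt1 acts on CG. The RefSeq promoter table (assembly GRCm38.p6, windows from 250 bases before to 50 bases after a start site) held 49 windows for 40 of the 46 members. The member windows had a median of 18 CG dinucleotides (interquartile range 11 to 24), and the 20488 windows of genes with a curated messenger RNA had a median of 14 (4 to 25). GATC, which reads the same on both strands, was found in 18 of 49 member windows (36.7%) and in 45.8% of the windows of curated genes. The E-box CACGTG, also the same on both strands, was found in 19 (38.8%) against 8.03%. The E2F motif GCGGGAA, searched on both strands, was found in 11 (22.4%) against 6.12%. The last 2 motifs each contain a CG, so they are not independent of the CG count, and an E-box can share its outermost base with a GATC.

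**Figure D1:**
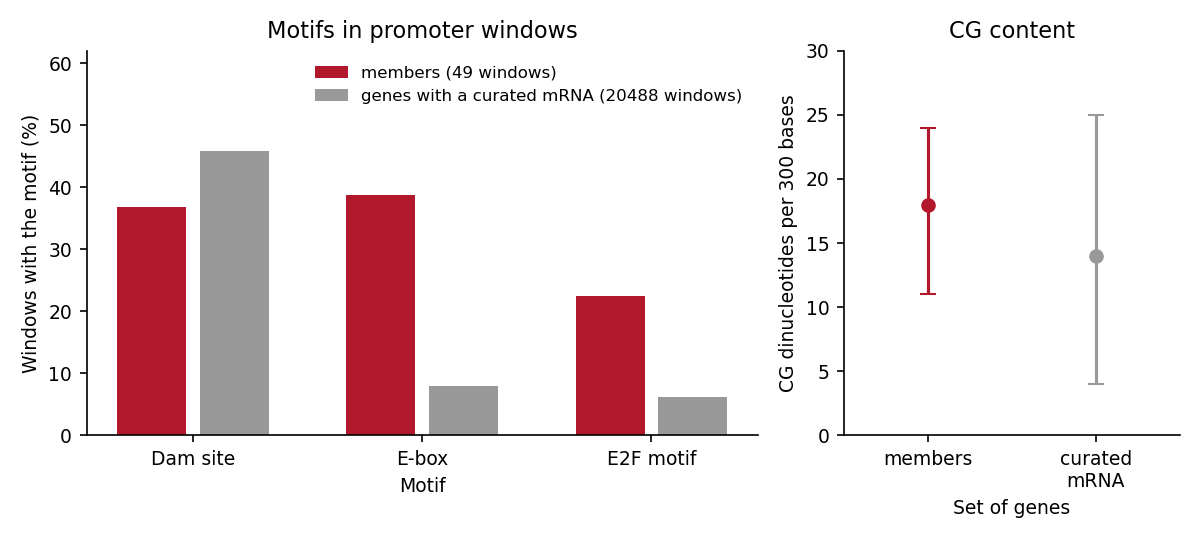
Left, the percent of promoter windows of 300 bases that hold each motif (Dam site, E-box, E2F motif), for member genes and for genes with a curated messenger RNA. Right, the median number of CG dinucleotides per window, with bars for the interquartile range. The E-box stood in 38.8% of member windows and 8.03% of the others, and the Dam site in 36.7% and 45.8%.

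The 250 bases upstream of 5 start sites show what these promoters look like. Figla, an activator of oocyte genes, is shown because its peak was the only member peak in a promoter class. Nobox, Dazl and Mov10l1 carried the highest member peaks. Ddx4, the germ cell helicase also called VASA, had no listed peak and was chosen after its window had been seen, as a CG-dense promoter that does hold a GATC. Capitals mark CG and GATC. The sequences are from RefSeq on GRCm38.p6, a different build from that of the peaks: Figla at chr6:86016941-86017190 (plus strand), Nobox at chr6:43309555-43309804 (minus), Dazl at chr17:50293621-50293870 (minus), Mov10l1 at chr15:88982744-88982993 (plus) and Ddx4 at chr13:112652311-112652560 (minus).
Figla: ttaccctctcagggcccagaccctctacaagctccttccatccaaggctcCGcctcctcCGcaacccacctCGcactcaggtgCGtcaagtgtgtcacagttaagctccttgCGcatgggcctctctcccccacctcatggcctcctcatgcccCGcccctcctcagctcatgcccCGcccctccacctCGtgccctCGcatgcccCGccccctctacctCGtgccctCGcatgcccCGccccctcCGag
Nobox: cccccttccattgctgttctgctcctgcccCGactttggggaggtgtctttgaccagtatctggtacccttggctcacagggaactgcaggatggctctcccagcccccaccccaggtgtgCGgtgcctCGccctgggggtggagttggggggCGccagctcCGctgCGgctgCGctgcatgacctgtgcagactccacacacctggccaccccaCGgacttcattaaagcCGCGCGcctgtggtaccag
Dazl: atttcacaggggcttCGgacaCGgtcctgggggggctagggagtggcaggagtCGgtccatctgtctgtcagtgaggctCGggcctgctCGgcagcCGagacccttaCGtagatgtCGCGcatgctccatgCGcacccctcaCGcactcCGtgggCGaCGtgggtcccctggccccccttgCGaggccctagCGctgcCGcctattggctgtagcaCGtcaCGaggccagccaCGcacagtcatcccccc
Mov10l1: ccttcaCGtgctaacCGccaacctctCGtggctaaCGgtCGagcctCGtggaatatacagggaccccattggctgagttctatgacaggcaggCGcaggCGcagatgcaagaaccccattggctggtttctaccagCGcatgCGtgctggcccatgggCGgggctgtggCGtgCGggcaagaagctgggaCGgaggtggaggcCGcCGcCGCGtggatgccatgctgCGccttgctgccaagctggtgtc
Ddx4: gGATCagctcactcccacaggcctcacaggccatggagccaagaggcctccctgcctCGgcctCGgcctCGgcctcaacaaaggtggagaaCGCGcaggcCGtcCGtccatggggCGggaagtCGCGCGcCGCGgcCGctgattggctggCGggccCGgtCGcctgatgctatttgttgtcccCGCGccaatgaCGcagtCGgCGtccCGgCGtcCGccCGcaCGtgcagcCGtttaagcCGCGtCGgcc

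These 250 bases held 14 CG dinucleotides at Figla, 11 at Nobox, 20 at Dazl, 19 at Mov10l1 and 31 at Ddx4, and GATC occurred in that of Ddx4 alone (1 copy). Among the 15 windows of the 12 members with a listed peak and a window in the table, 1 held GATC (6.67%), an alternative start of Tdrd7. Among the 34 windows of the 28 members without a listed peak, 17 held it (50.0%), and 45.8% of the windows of curated genes did. Alternative starts of a gene count as separate windows, and the difference by peak status was not tested. No member peak lay closer than 3.40 kb to the start site the table uses, so these letters describe the promoters and not the peaks.

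The share of germline genes with a listed peak could not be told apart from that of all genes at this list size. By gene name, 11 of 46 members had one (23.9%, exact 95% Clopper-Pearson interval 12.6 to 38.8), against 17.9% of the 21035 genes with a curated messenger RNA matched in the same way. With accessions included, 13 of 46 had one (28.3%, 16.0 to 43.5), against 22.7%. Both intervals contain the share of all genes. By role, 3 of 15 piRNA genes (20.0%, 4.33 to 48.1), 4 of 17 meiosis genes (23.5%, 6.81 to 49.9) and 6 of 14 other germ cell genes (42.9%, 17.7 to 71.1) had a peak, and the 3 intervals overlap. The intervals cover counting error only, and genes were not matched on length.

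**Figure D2:**
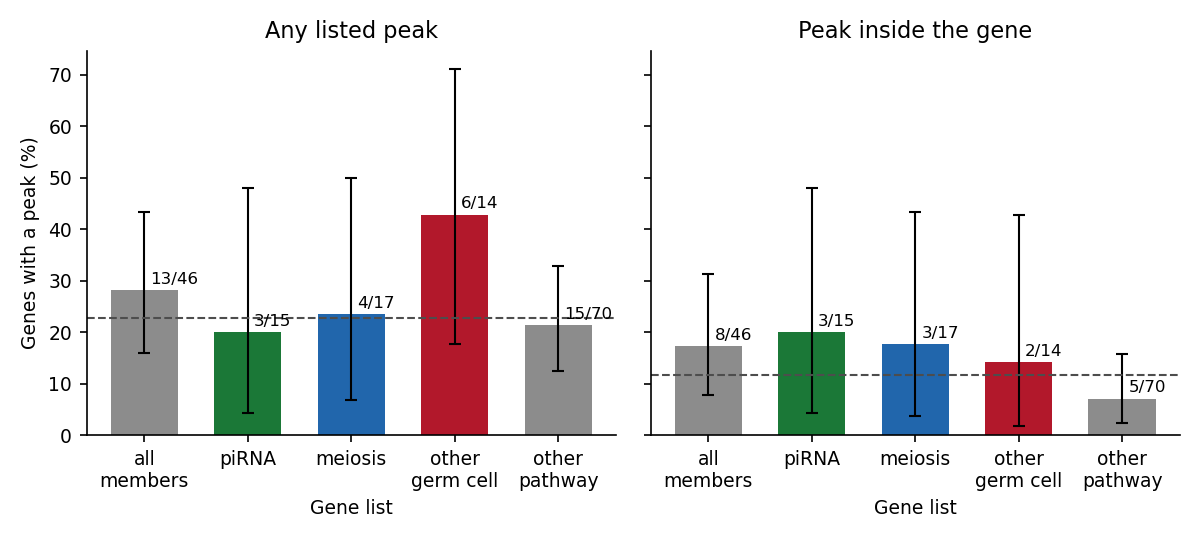
Percent of genes in each list with any listed peak (left) and with a peak inside the gene (right), matched by accession, gene ID or name. Bars give the percent, error lines the exact 95% interval and labels the counts, and the dashed line is the share of all genes with a curated messenger RNA (22.7% left, 11.7% right). Each interval spans the dashed line.

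The piRNA genes with a peak were Mov10l1, Stk31 and Tdrd7, and each had a peak inside the gene. Mov10l1, the RNA helicase that passes piRNA precursors on to processing, spans 88813424 to 88885582 on chromosome 15 and had 2 peaks there. The first, at 88824611 (mm9, as all peak positions here), lay in a SINE 11.2 kb from the start site, with a height of 17 for Dnmt1-Dam and 1 for Dam-only. Pairs of heights below are in this order. Of all listed peaks, 5.23% reached that height, and the ratio of 17 was the largest among the member peaks. The second, at 88884831, lay in the last stretch of the gene (99.0% of the way along), with heights of 9 and 3 and the smallest ratio among them, 3.

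Stk31, a Tudor domain protein of germ cells with a kinase-like region, spans 49345603 to 49419500 on chromosome 6 and also had 2 peaks. The one inside the gene, at 49372761, lay in a SINE with heights of 13 and 2. The other, at 49503331, lay in a LINE 83.8 kb beyond the end of the gene, with heights of 11 and 2. Tdrd7, a Tudor domain protein of the chromatoid body (46000334 to 46047631 on chromosome 4), had 1 peak at 46041581, in a CpG island shore near the end of the gene (87.2% along), with heights of 8 and 1. The other 12 piRNA members had none. They were the PIWI genes Piwil1, Piwil2 and Piwil4, the Tudor genes Tdrd1, Tdrd5, Tdrd6, Tdrd9 and Tdrkh, and Ddx4, Mael, Asz1 and Tex15.

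The meiosis members had no peak above a height of 8. Hormad2, a protein of the chromosome axis (4246386 to 4341085 on chromosome 11), had 1 peak inside the gene at 4280071, with heights of 8 and 1 and no repeat. Tex11, a gene of crossover formation (98034003 to 98254976 on chromosome X), had 1 inside the gene at 98172161, in a DNA transposon, also with heights of 8 and 1. It was the only member peak on chromosome X. No meiosis member reached a height of 9, a height that 52.9% of all listed peaks had or passed. Counted by gene, 0 of 17 allows a share of up to 17.6%, and 14.5% of all genes had such a peak. At that background a list of this size cannot show a shortage. Among the other meiosis genes described below, 4 of 30 had such a peak (13.3%).

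The remaining 3 meiosis peaks were found by accession. Mei4, needed for the DNA breaks that start recombination and listed as 4930486G11Rik, had a peak in an LTR element inside the gene (chromosome 9, 81809311) and another 118 kb beyond its end (82038831). Both had heights of 7 and 1, and 7 is the lowest height in the table. Syce1, of the central element of the synaptonemal complex, is listed without a name and had a peak 11.8 kb upstream of its start site (chromosome 7, 147985531), with heights of 8 and 2. The other 13 meiosis members had no listed peak. These were the synaptonemal complex genes Sycp1, Sycp2, Sycp3 and Syce2, the axis and cohesin genes Hormad1, Stag3, Rec8 and Smc1b, the recombination genes Dmc1, Spo11, Mei1 and Prdm9, and Stra8, the switch into meiosis.

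The highest member peak was assigned to a gene of oocyte development and lay outside it. Nobox, an oocyte homeobox factor (43253673 to 43259553 on chromosome 6), was assigned a peak with heights of 26 and 2 at 43294201, a height that 59 of 8226 peaks (0.717%) reached. It lay 34.6 kb upstream of Nobox. Dazl, an RNA-binding regulator of translation in germ cells (50418719 to 50432924 on chromosome 17), had a peak with heights of 17 and 3 at 50514381, 81.5 kb upstream. Its other peak, in a LINE 13.6 kb beyond the gene (50405081), had heights of 7 and 1.

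Figla, the oocyte factor that switches on the zona pellucida genes (85967185 to 85970990 on chromosome 6), had the member peak closest to a start site. It lay 3.40 kb upstream at 85963781, in a CpG island shore without a repeat, with heights of 13 and 1. Its targets Zp2 and Zp3, which encode proteins of the egg coat, had no listed peak.

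Among the genes of sperm formation, Spata16, an acrosome gene (26536553 to 26882134 on chromosome 3), had 4 peaks, the most of any member. A pair 0.49 kb apart lay upstream, at 26524571 (12.0 kb away, heights 10 and 1) and 26525061 (11.5 kb away, 7 and 1, in a DNA transposon). The other pair lay in SINEs in the last part of the gene, at 26796381 and 26834641, each with heights of 8 and 1. Tex14, which keeps the bridges between germ cells open (87218567 to 87369325 on chromosome 11), had 2 peaks inside the gene, at 87247071 and 87352221, each with heights of 8 and 2. For the second of these, the start site of Sept4 (42.4 kb) was nearer than that of Tex14 (134 kb). Tuba3a, an alpha-tubulin gene of the testis, had a peak in a CpG island shore 11.9 kb beyond its end (chromosome 6, 125216411), with heights of 8 and 2. Brdt, Nanos2, Nanos3, Tex19.1, Sohlh1 and Sohlh2 had none.

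**Figure D3:**
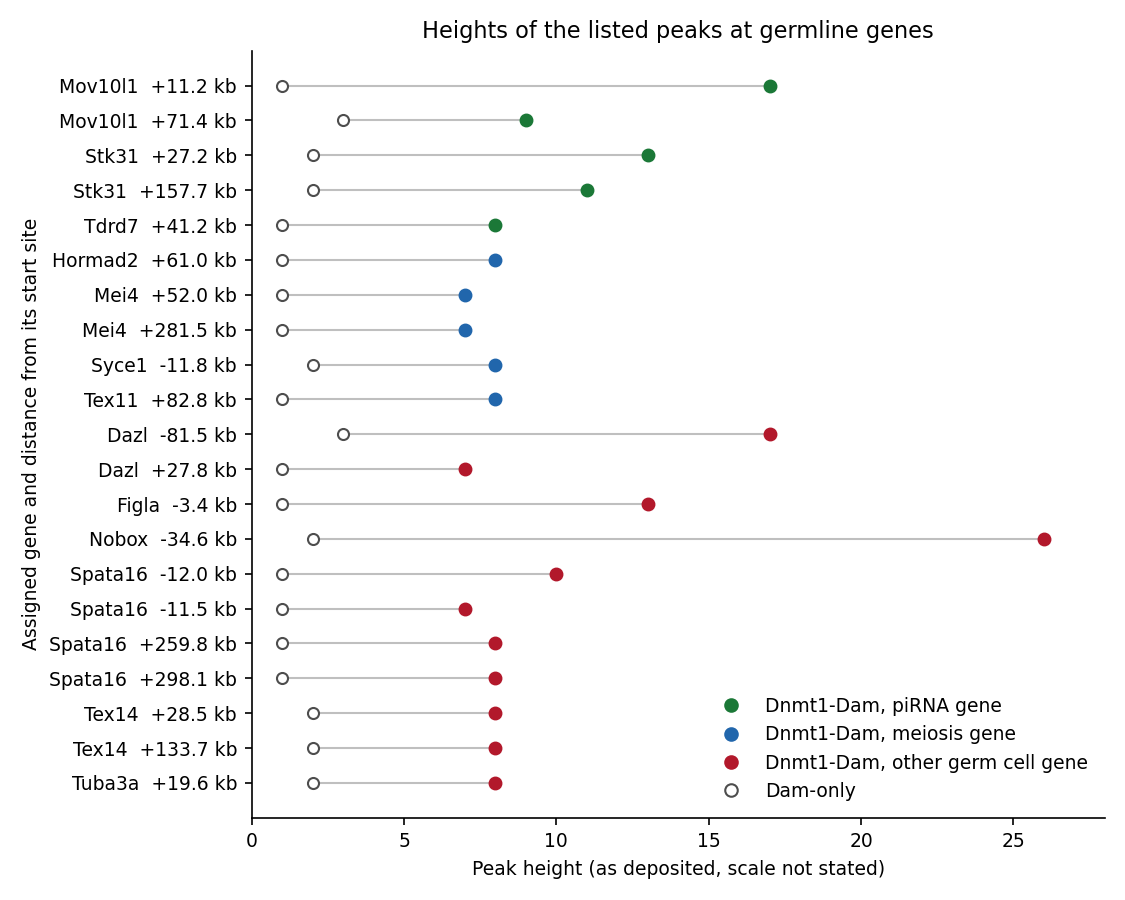
Height in the Dnmt1-Dam library (filled, colored by role) and in the Dam-only library (open) for each of the 21 peaks, labelled with the gene and the distance from its start site. Dnmt1-Dam heights ran from 7 to 26 and Dam-only heights from 1 to 3, with Nobox, Dazl and Mov10l1 at the upper end and the meiosis genes at 7 or 8.

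The 21 peaks had a median Dnmt1-Dam height of 8 (interquartile range 8 to 11), and all listed peaks had a median of 9 (7 to 11). A height of 15 or more was reached by 3 of them (14.3%, 3.05 to 36.3), namely those at Nobox, Dazl and Mov10l1, against 8.66% of all peaks. Counted by gene, this is 3 of 46 members (6.52%, 1.37 to 17.9) against 2.98% of all genes, a share within that interval. The Dam-only height was 1, the lowest value listed, at 12 of 21 (57.1%, 34.0 to 78.2) against 75.8%, and no Dam-only height among the members exceeded 3. Every listed position has a higher Dnmt1-Dam than Dam-only height by selection, so the direction at the members is no result.

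Few of the peaks lay in promoters, among the members and in the whole list. The 2 promoter classes held 1 of the 21 member peaks (4.76%, 0.120 to 23.8) and 6.73% of all peaks, a share within that interval. No member had a peak in the proximal promoter, which reaches 3 kb before and 1 kb after the start site. A count of 0 of 46 allows a share of up to 6.52%, and 0.965% of all genes had one. At that background a list of this size cannot show a shortage. A peak in either promoter class was found at 1 of 46 members (2.17%, 0.0550 to 11.5), Figla, against 2.42% of all genes. A peak inside the gene was found at 8 of 46 (17.4%, 7.82 to 31.4), against 11.7%.

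By location class, 11 of the 21 peaks lay in a gene body (52.4%, 29.8 to 74.3), 9 were intergenic (42.9%, 21.8 to 66.0) and 1 lay in a distal promoter (4.76%, 0.120 to 23.8). The corresponding shares of all peaks were 42.5%, 50.8% and 4.07%, each within the interval of the members. Of the piRNA and meiosis genes with a peak, only Syce1 had none inside the gene. Of the 6 other germ cell genes, Spata16 and Tex14 had one inside, and the other 4 entered through peaks 3.40 to 81.5 kb away. Those 4 genes (Dazl, Figla, Nobox and Tuba3a) are short, from 3.81 to 14.2 kb, and the genes with an inside peak run from 47.3 kb (Tdrd7) to 346 kb (Spata16). In all, 1 of 21 member peaks, at Mei4, lay over 100 kb outside its gene (4.76%, 0.120 to 23.8), against 23.1% of all peaks. That share falls within the interval over the 21 peaks. Matched by name alone, 0 of 18 lay that far out (interval 0 to 18.5), and 23.1% lies above this interval. Distance is one of several classes compared without adjustment. The files used here do not tell exons from introns.

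**Figure D4:**
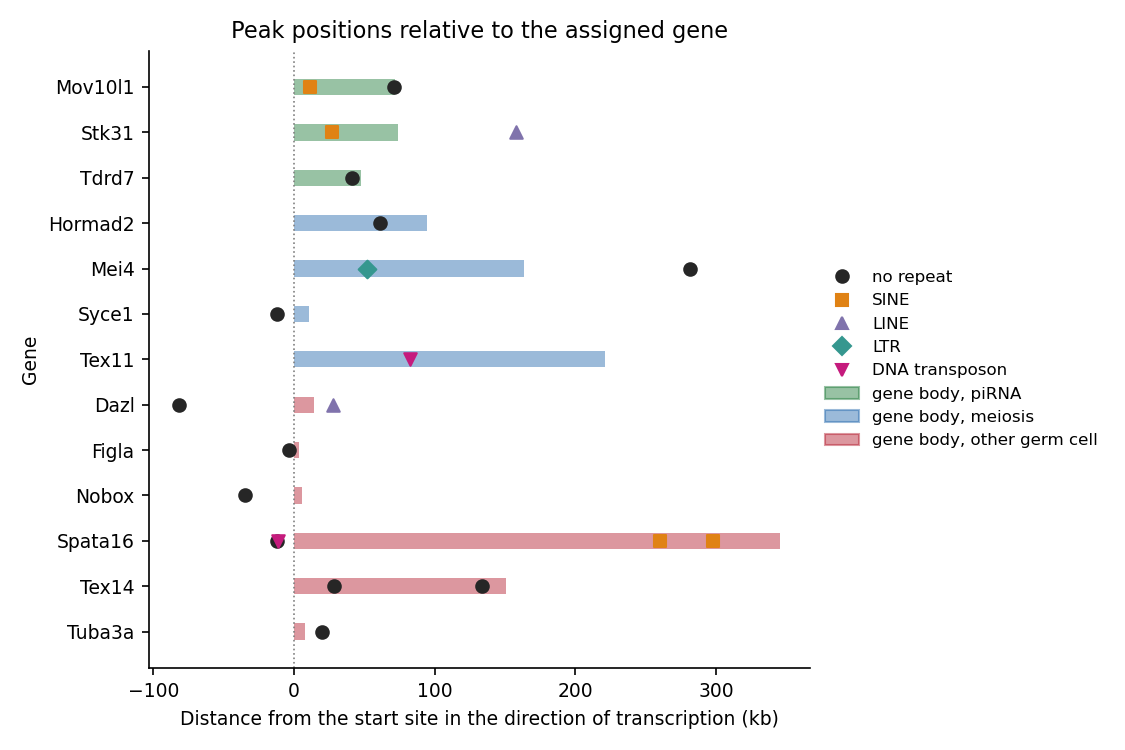
Distance of each peak from the start site of its assigned gene, in kb along the direction of transcription, with the gene body as a bar and the repeat class as the marker. The piRNA peaks lie inside or beyond the gene bodies, and those of Dazl, Figla, Nobox and Tuba3a lie outside short genes.

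Retroelements, whose transcripts the piRNA pathway targets, were named at 7 of the 21 peaks (33.3%, 14.6 to 57.0), against 35.0% of all peaks. SINEs were named at 4 (19.0%, 5.45 to 41.9; all peaks 17.1%), at Mov10l1, Stk31 and, with 2 peaks, Spata16. LINEs were named at 2 (9.52%, 1.17 to 30.4; all peaks 8.18%), at Dazl and Stk31. An LTR element was named at 1 (4.76%, 0.120 to 23.8; all peaks 10.8%), at Mei4. DNA transposons were named at 2 (9.52%, 1.17 to 30.4; all peaks 1.90%), at Tex11 and Spata16. Each interval contains the share of all peaks.

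CpG island shores held 3 of 21 peaks (14.3%, 3.05 to 36.3), at Figla, Tdrd7 and Tuba3a, against 3.50% of all peaks. Per peak, the interval contained that share over the 21 peaks and just missed it over the 18 matched by name (3.58 to 41.4). Counted by gene, 3 of 46 members had a shore peak under both matchings (6.52%, 1.37 to 17.9), against 1.25% of all genes by accession and 0.994% by name, both below the interval. This rests on 3 peaks, and it is one of several classes compared without adjustment. The member promoter windows also held more CG (median 18 against 14). The shore peaks lay 3.40 kb upstream (Figla), and 41.2 kb (Tdrd7) and 19.6 kb (Tuba3a) after, the assigned start sites. The windows therefore describe promoters and not these shores, and the part of CG content in the shore count was not tested. Among 70 other genes of these pathways, 1 had a shore peak (1.43%, 0.0362 to 7.70). No member peak lay in a CpG island itself, where 0 of 21 allows up to 14.3% and all peaks had 0.559%.

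**Figure D5:**
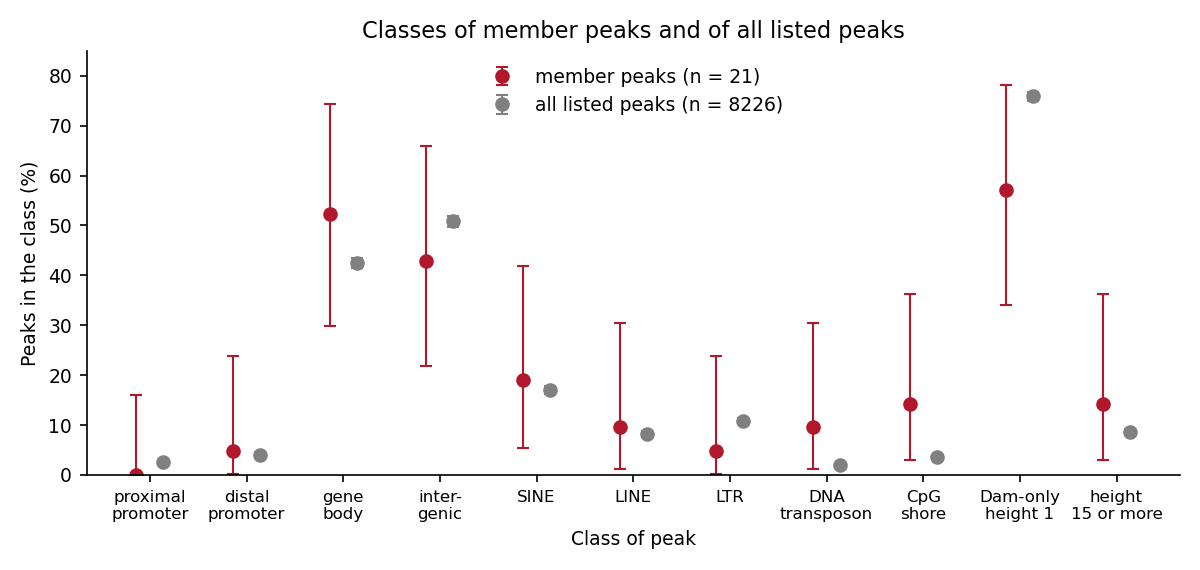
Percent of the 21 member peaks (red) and of all 8226 listed peaks (grey) in each class of location, repeat, CpG context and height, with exact 95% intervals. The member intervals all contain the share of all peaks, for example at CpG shores (14.3% against 3.50%) and at a Dam-only height of 1 (57.1% against 75.8%).

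Other genes of the same pathways, 70 in number, were examined beside the members. By accession, gene ID or name, 15 of 70 had a listed peak (21.4%, 12.5 to 32.9), against 22.7% of all genes. These were 2 of 15 piRNA genes, 5 of 30 meiosis genes and 8 of 25 germ cell genes. Matched by name alone, 9 of 70 had one (12.9%, 6.05 to 23.0), against 17.9% of all genes matched in the same way. Both intervals contain the share of all genes.

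By accession, gene ID or name, 1 of 70 genes of this wider list had a proximal promoter peak (1.43%, 0.0362 to 7.70), against 0.965% of all genes. A peak in either promoter class was found at 4 of 70 (5.71%, 1.58 to 14.0), against 2.42%. Both intervals contain the share of all genes. Pnldc1, the exonuclease that trims piRNAs, had a peak 0.215 kb upstream of its start site, in a SINE and a simple repeat (chromosome 17, 13103081), with heights of 7 and 1, the lowest in the table. Henmt1, which methylates the ends of piRNAs, had 2 peaks 20.6 and 45.9 kb beyond the gene, with heights of 7 and 1 and of 8 and 2. Distal promoter peaks were found at Meioc, a regulator of meiotic entry (8 and 2, in a LINE), at Crem, an activator of spermatid genes (8 and 1, in LTR sequence), and at Tfap2c, a factor of primordial germ cells (8 and 2, in a SINE). A second Tfap2c peak, 102 kb beyond the gene, had heights of 15 and 1.

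The 2 highest peaks of the wider list were at the meiosis genes Msh4 and Six6os1, followed by the Tfap2c peak of height 15. Msh4, a MutS homolog of crossover formation, had heights of 20 and 6 in a SINE inside the gene (chromosome 3, 153548101). Six6os1, of the synaptonemal complex, had heights of 17 and 1 in a SINE 40.5 kb beyond the gene. Iho1, which acts with Hormad1 and Mei4 in making DNA breaks, had heights of 11 and 1 in a CpG island shore inside the gene. Trip13, the ATPase that removes Hormad proteins from the axis, had heights of 9 and 2 in an LTR element 10.7 kb beyond the gene.

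Among the genes of germ cell specification and spermatogonia, Zbtb16, of spermatogonial stem cells, had 3 peaks inside the gene with Dnmt1-Dam heights of 13, 8 and 7 at a Dam-only height of 1 each. Gfra1, the GDNF receptor of the same cells, had a peak inside the gene (9 and 1) and another 12.0 kb beyond it (8 and 1). Kit, a receptor of migrating germ cells, had 1 peak inside (9 and 3) and 2 upstream (10 and 4, 7 and 1). Prdm1 (62.3 kb beyond the gene) and Dppa3 (28.4 kb beyond) each had heights of 9 and 1, and Tnp1 had 8 and 1 at 2.03 kb beyond the gene. Henmt1 and Tnp1 were outside the rule for named genes and were named after their values were seen, and Trip13, Prdm1 and Dppa3 entered it as ties under name matching only.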

How the data were processed

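Genomic DNA of 1 Dnmt1-Dam and 1 Dam-only library was profiled, after 15 PCR cycles and selection of fragments near 300 bp, per the labels' protocols. CASAVA, BWA and mm9 are named in the submitters' processing notes. Neither the peak caller and its thresholds nor the treatment of duplicate reads is given in the sources used here. Per library, the deposited table gives a signal height for each peak, on a scale that is not stated, with location, repeat, CpG island context and assigned gene by the authors. All 8226 location classes could be derived from that gene's coordinates.

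Peaks were matched to members by gene name, and as an alternative by accession, gene ID or synonym in a RefSeq gene table (GRCm38.p6), which held all 46 members and 69 of the 70 other pathway genes. Of the peaks, 473 had no gene name. The assigned gene had the nearest start site among the genes of the table at 94.9% of peaks. Exact Clopper-Pearson intervals (95%) were computed with scipy 1.17.1. They and the limits for a count of 0 (3 counts) cover counting error only. With 1 library per group no test was run. Members and lists were chosen with earlier results of these data known. Named genes were all members with a peak, and other pathway genes with a peak in the gene or a promoter class or among the 4 highest, ties included. Alternatives varied the peak height, Dam-only height, distance, runs of peaks, repeat naming and gene matching. Matching by gene name was tested on simulated data, and matching by accession, gene ID or synonym was not.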

Additional observations from a re-analysis of the deposited data

How the results depend on the processing

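Counts of members with a peak depended on which peaks were admitted. By name, 11 of 46 members had a peak, 6 (13.0%) had one of height 9 or more (all genes, same matching: 11.5%), 3 (6.52%) one of height 15 or more (2.41%) and 7 (15.2%) one at a Dam-only height of 1 (14.7%). The piRNA genes went from 3 to 1 at height 15 or more. The meiosis genes went from 2 to 0 at height 9 or more and at 15 or more, and to 4 when matched by accession. The other germ cell genes went from 6 to 2 at height 15 or more, and to 3 at a Dam-only height of 1, with peaks inside the gene or a promoter class alone, and within 10 kb. The wider list went from 9 (12.9%) to 4 (5.71%) with peaks inside the gene or a promoter class, and to 15 (21.4%) when matched by accession. The share of all genes moved in the same directions. By name it went from 17.9% to 10.7% inside the gene or a promoter class and to 11.5% within 10 kb. By accession it was 22.7%. Each of these settings admits fewer peaks, except matching by accession, which adds peaks. The location and repeat shares and the median height stayed within their interval or interquartile range under each alternative run, which were 1 peak per 1 kb run, height 9 or more, first repeat named, Dam-only height of 1 and matching by accession. Matching by accession for the wider list and for the shares was added after the data had been seen. Depth is unknown, so a member without a listed peak is one below the submitters' selection and not one shown to lack Dnmt1. No paired analysis was possible because each group is 1 library.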

Other observations

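The naming of genes in the deposited table affects any gene list. Of the 21035 genes with a curated messenger RNA, 4766 (22.7%) had a peak by accession, gene ID or name, and 3774 (17.9%) by current symbol alone. In the germline list this difference covered Mei4 and Syce1, and in the wider list Henmt1, Pnldc1, Meioc, Iho1, Tfap2c and Crem, which include the only proximal promoter peak of the 2 lists.

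Within 100 kb of the gene, 9 of the 13 germline genes with a peak had no listed peak assigned to another gene (69.2%, exact 95% interval 38.6 to 90.9). The share among all 4766 genes with a peak was 61.4%, which lies within that interval. The exceptions were Hormad2, with 4 such peaks, Syce1, with 3, and Mov10l1 and Tex14, with 1 each.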
